A study of Mus musculus with 11 samples.

Results

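The data set asks how a focal cold injury changes gene expression in mouse cortex when astrocytes carry an active form of the transcription factor CREB, and whether that change differs from the one in wild-type cortex. The quantity described here is the genotype by lesion interaction, the lesion effect in transgenic mice minus the lesion effect in wild-type mice. All 11 arrays and all 22 mice of the series entered it, with groups taken from the array titles. The mice were on a C57/Bl6J background and 5 to 7 months old, and RNA came from cortex of the right hemisphere. Intact wild-type mice formed the group WT (n = 6), and intact mice carrying GFA2-tTa/TetO-VP16-CREB formed the group T (n = 5). Wild-type mice with a cryolesion formed the group WTC (n = 5), and transgenic mice with the same lesion formed TC (n = 6). The lesion was made with a dry ice pellet held for 30 s, and lesioned tissue was taken 3 days later. The GFA2 element is an astrocyte promoter that drives a tetracycline-controlled activator, which in turn switches on VP16-CREB, so neurons, microglia and vessel cells are not the intended site of the transgene. In these bulk samples, fewer cells of a type and less RNA per cell cannot be told apart.

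On each array 1 mouse was labelled with Cy5 and 1 with Cy3, and no mouse was used on more than 1 array. The arrays are named A to F (slide 1) and I to M (slide 2). All WT mice were on slide 1, so the interaction could not be estimated within slide 2. The share of spots well above background ran from 56.6% to 65.3% over the channels. The small number of arrays limits precision, and single arrays moved several of the counts below. After removal of dim probes, 25995 features remained, of which 16030 had a gene symbol. An effect is given as a log2 ratio ± standard error (SE) from 1 linear model over all arrays, and a level is a normalised log2 channel value of 1 mouse.

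Several mice and labels stood apart. The channel 2 labels of 3 arrays (I, J and K) contradict the titles. Lgals3, one of the lesion-raised genes below, was at 8.70 in the T mouse of array J, within the WT range of 7.69 to 9.16. It was at 14.26 in the TC mouse of array K, above every WTC mouse, and at 9.89 in the TC mouse of array I, above every intact mouse. The TC mouse of array I had the lowest level of all TC mice for many injury genes: pan-reactive astrocyte genes averaged 9.84 in it, while the remaining TC mice ran from 10.86 to 11.95 and T mice from 9.16 to 9.45. Cell cycle genes averaged 7.59 in it, inside the T range of 7.48 to 8.05, while the remaining TC mice ran from 8.98 to 10.48. Its Gfap level of 13.94 lay above every T mouse, whose highest was 12.72. Gene lists below are therefore given with the range of their median difference when any 1 array was left out, with the arrays that gave its ends. Striatal marker genes ranged from 9.98 to 13.24 in WT and from 9.53 to 11.97 in TC, and choroid plexus and ependyma genes from 8.12 to 12.23 in TC. These markers of tissue next to the cortex thus differed widely between mice of 1 group. The WT mouse of array A had the striatal level of 9.98, and the remaining WT mice ran from 11.36 to 13.24. Low striatal levels were also found in the WTC mouse of array A, 9.07, and the T mouse of array F, 9.64. Excitatory cortical neuron genes averaged 8.86 in the TC mouse of array I and 9.84 in the WT mouse of array A. In the remaining mice they ran from 10.08 to 11.22. Only features with a value on every array were kept, so their presence in every group is no check of the labelled tissue. No Y-linked signal was found in 2 WT, 1 T, 1 WTC and 0 TC mice.

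CREB is a transcription factor that is phosphorylated after cAMP or calcium signals and binds the cAMP response element. VP16-CREB fuses it to a viral activation domain and acts without that signal. After a cortical wound, astrocytes raise intermediate filaments and secreted acute-phase proteins, microglia and infiltrating leukocytes raise phagocytic, complement and chemokine genes, and several cell types divide. Neurons near the wound lose synaptic and metabolic transcripts.

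No feature passed the interaction test. Of 25995 features, 0 had an adjusted p under 0.05 (0%, limma with Benjamini-Hochberg adjustment), and the lowest adjusted p was 0.81. An unadjusted p under 0.05 was found for 1385 features (5.33%), where 1300 would be reached by chance alone. Without array B that count was 595, without array I it was 821, and without array K it was 3469. Among the 1385, the lesion effect lay higher in transgenic cortex for 752 and lower for 633. The effects had opposite signs in 893 of them, the same sign but a smaller size in transgenic cortex in 381, and the same sign with a larger size in 111. Each genotype's own lesion effect was also weakly resolved: WTC minus WT passed for 6 features (0.0231%) and TC minus T for 0 (0%, with 3098 at an unadjusted p under 0.05). The 6 were Lgi4, Mgst1, Timp1, Tmem47, Traf1 and Unc13d, all higher after the lesion. Without array I the counts were 1433 and 6, and in a fit of single channels 6924 and 1872. The precision bounds how alike the effects were. The 95% confidence interval of the interaction lay within 1.5-fold of no difference for 16549 features (63.7%) and within 2-fold for 22552 (86.8%).

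Lesion-responsive genes were chosen by the mean of both lesion effects, which in this design is nearly uncorrelated with their difference (correlation -0.023). By this mean, 86 features were higher after the lesion (0.331%) and 7 were lower (0.0269%). Over these 93 features the median lesion effect was 1.05 in wild-type and 0.84 in transgenic cortex. The transgenic effect was the smaller one for 69 (74.2%) and the larger one for 24. Over all 25995 features it was smaller for 60.1%, where no lesion response was required. The median difference along the direction of the lesion was -0.23 for the 93 and -0.04 for all features. Of the 93, 13 had an unadjusted interaction p under 0.05, and in all 13 the transgenic effect was smaller. Over all features it was smaller for 993 of the 1385 under that threshold.

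The raised and lowered features were also read separately, without a test between them. For the 86 raised features the median effect was 1.10 in wild-type and 0.89 in transgenic cortex, and 67 were smaller in the transgenic. For the 7 lowered features the medians were -0.52 and -0.56, and 2 were smaller in the transgenic. Among the 1841 features lowered at an unadjusted p under 0.05, 1081 (58.7%) were smaller, near the share of all features, and among the 3239 raised at that threshold 2540 (78.4%) were. Without array I the same counts of 67 and 2 were found, while the median difference of the 93 was -0.16. The 3239 raised features did depend on that array: 2225 (68.69%) were smaller without it, against 57.65% of all features. Their median difference moved from -0.157 to -0.080. Membership of the 93 rested on single arrays. No feature passed when array B, C or J was left out, between 2 and 17 passed without D, E, F, L or M, 137 without A, 923 without K and 1394 without I. Within slide 1 alone, which holds a single TC mouse (array C), the median difference of the 93 was 0.050 and 40 of 93 were smaller.

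**Figure D1:**
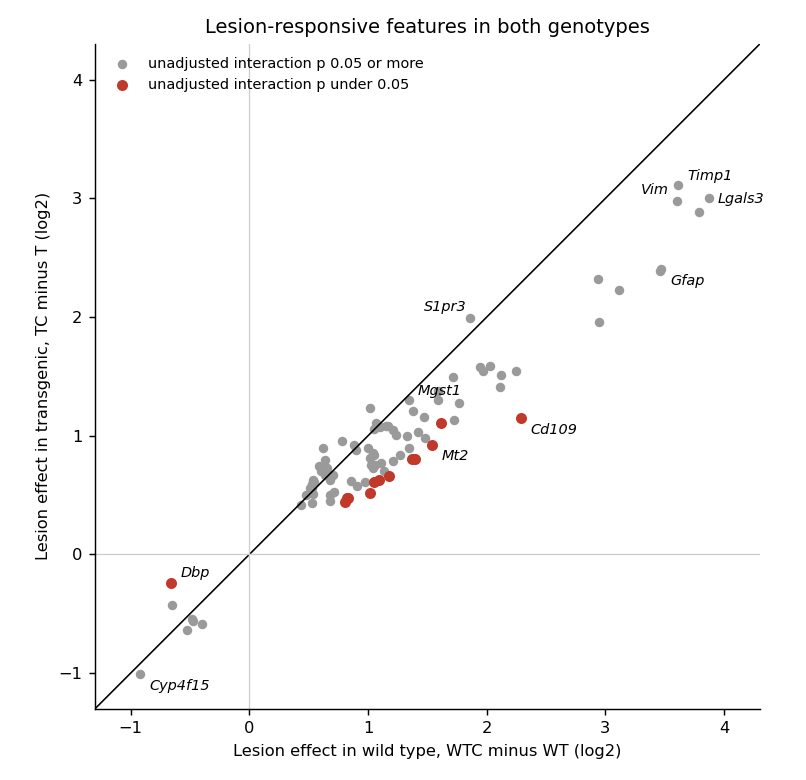
Lesion effect in wild-type cortex (horizontal axis, log2) against that in transgenic cortex (vertical axis, log2) for the 93 lesion-responsive features, with the line of equal effects. Of these points 69 show a smaller effect in transgenic cortex, and the 13 red points (unadjusted interaction p under 0.05) all do. Over all features 993 of the 1385 under that threshold do. The selection of the 93 used the mean of both effects.

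The largest responses among the 93 were those of cytoskeletal and secreted proteins of reactive glia. Gfap, the astrocyte intermediate filament, had WT levels from 11.14 to 12.55 with a median of 11.51. The WTC mice were at 14.00, 14.90, 14.90, 15.14 and 15.73. The T mice were at 11.96, 12.12, 12.69, 12.71 and 12.72, and TC mice ranged from 13.94 to 15.68 with a median of 14.65. Lesioned mice of both genotypes thus lay above all intact mice, the WTC and TC ranges overlapped, and 3 of 5 T mice lay above every WT mouse. The lesion effect of Gfap was 3.47 ± 0.46 in wild-type and 2.41 ± 0.45 in transgenic cortex, a difference of -1.06 ± 0.53 (95% confidence interval -2.25 to 0.13, adjusted p 0.81). Its 3 probes gave -1.25, -1.06 and -0.74. Within slide 1, where TC is 1 mouse, the Gfap difference was 0.77.

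Timp1, an inhibitor of matrix metalloproteinases, had a lesion effect of 3.61 ± 0.42 in wild-type (adjusted p 0.046) and 3.11 ± 0.41 in transgenic cortex (adjusted p 0.20). Its WT levels ran from 6.26 to 8.90 (median 6.99) and its TC levels from 9.75 to 13.74 (median 11.89). The WTC mice were at 10.71, 12.49, 12.56, 12.75 and 13.53, and the T mice at 6.70, 6.91, 6.99, 7.80 and 7.91. Lesioned and intact mice did not overlap, while WTC and TC did, with the TC mouse of array I lowest. The filament gene Vim showed 3.60 ± 0.55 and 2.98 ± 0.54, the lectin gene Lgals3 3.87 ± 0.61 and 3.00 ± 0.60, and the tubulin gene Tubb6 3.79 ± 0.48 and 2.88 ± 0.47. Serpina3n, an acute-phase protease inhibitor of reactive astrocytes, showed 3.11 ± 0.47 and 2.23 ± 0.46. In each of these the transgenic estimate was the smaller one and the interval of the difference included 0. Without array I the differences were -0.11 for Vim, -0.19 for Timp1, -0.42 for Lgals3 and -0.75 for Gfap.

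The 13 features with an unadjusted p under 0.05 among the 93 include Sox9 and Mlc1 of the homeostatic astrocyte list. Sox9, a transcription factor of astrocytes, had WTC levels of 10.28, 10.31, 10.39, 10.49 and 10.59 and TC levels from 10.07 to 10.48 (median 10.28). In intact mice it ran from 9.52 to 9.93 in WT (median 9.70) and was 9.77, 9.79, 9.80, 9.87 and 10.04 in T. Lesioned mice lay above all intact mice, and the distance was smaller in the transgenic, at 0.48 against 0.83 (difference -0.35 ± 0.12, unadjusted p 0.016). Mlc1, an astrocyte end-foot membrane protein, had lesion effects of 0.81 and 0.44 (difference -0.36 ± 0.14). Cd109, a surface protein that binds TGF-beta, had effects of 2.29 and 1.15 (difference -1.14 ± 0.37). The metallothionein gene Mt2 had effects of 1.54 and 0.92 (difference -0.62 ± 0.25). Further members were Traf1, an adaptor of TNF receptors, with 1.61 and 1.11, Sdc4, a heparan sulfate proteoglycan, with 1.4 and 0.81, and Zfp36l1, an RNA-decay factor, with 1.02 and 0.51. None of them passed after adjustment over all features.

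Dbp, a circadian clock output factor, was the lowered gene among the 13. Its WT levels ran from 14.99 to 15.31 (median 15.19), and its TC levels from 14.00 to 14.77 (median 14.50). The T mice were at 14.57, 14.74, 14.79, 14.90 and 15.12, and the WTC mice at 14.20, 14.26, 14.44, 14.49 and 14.54. The lesioned groups overlapped, whereas 4 of 5 T mice lay below every WT mouse. The lesion effect was -0.66 ± 0.09 in wild-type and -0.24 ± 0.09 in transgenic cortex (difference 0.42 ± 0.10, adjusted p 0.81), and both probes gave a positive difference, of 0.42 and 0.51.

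Among the 93, named genes with a mean lesion effect of at least 1 were also chosen for intervals that reached least far from 0. They were Mgst1, Rps6ka1, Agtrap, Metrn, Plce1 and Fam107b. Their near-equal effects follow from that choice, so their values are a description. Of these, Mgst1, a microsomal glutathione transferase, had the interval that reached least far from 0. Its WTC mice were at 11.97, 12.02, 12.06, 12.09 and 12.12, and its TC mice ran from 11.64 to 12.27 (median 11.80). Intact mice ran from 10.41 to 11.03 in WT (median 10.75) and were at 10.25, 10.55, 10.66, 10.78 and 10.99 in T. Every lesioned mouse, that of array I included, lay above every intact mouse. The effects were 1.34 ± 0.16 and 1.30 ± 0.15, with a difference of -0.04 and a 95% confidence interval from -0.45 to 0.36.

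Similar bounds were found for Rps6ka1, a kinase downstream of ERK, with effects of 1.15 and 1.08 (interval of the difference -0.49 to 0.35). They were found for Agtrap, which binds the angiotensin II receptor, with 1.05 and 1.06 (-0.48 to 0.51), and for Metrn, a secreted glial factor, with 1.10 and 1.07 (-0.54 to 0.48). Plce1, a phospholipase C, had 1.02 and 1.24 (-0.17 to 0.60), and Fam107b had 1.06 and 1.11 (-0.52 to 0.62). Among lowered genes, Cyp4f15, a fatty acid hydroxylase, had -0.92 and -1.0 (-0.54 to 0.36), and Fcho1, an endocytosis factor, had -0.47 and -0.56 (-0.33 to 0.15). Il1rapl2, Pianp and F12 likewise had intervals that included 0. The water channel Aqp4 had effects of 1.59 ± 0.29 and 1.38 ± 0.29, with an interval of the difference from -0.96 to 0.54. Of the 93 features, 35 (37.6%) had an interval within 1.5-fold of equality and 66 (71.0%) within 2-fold.

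**Figure D2:**
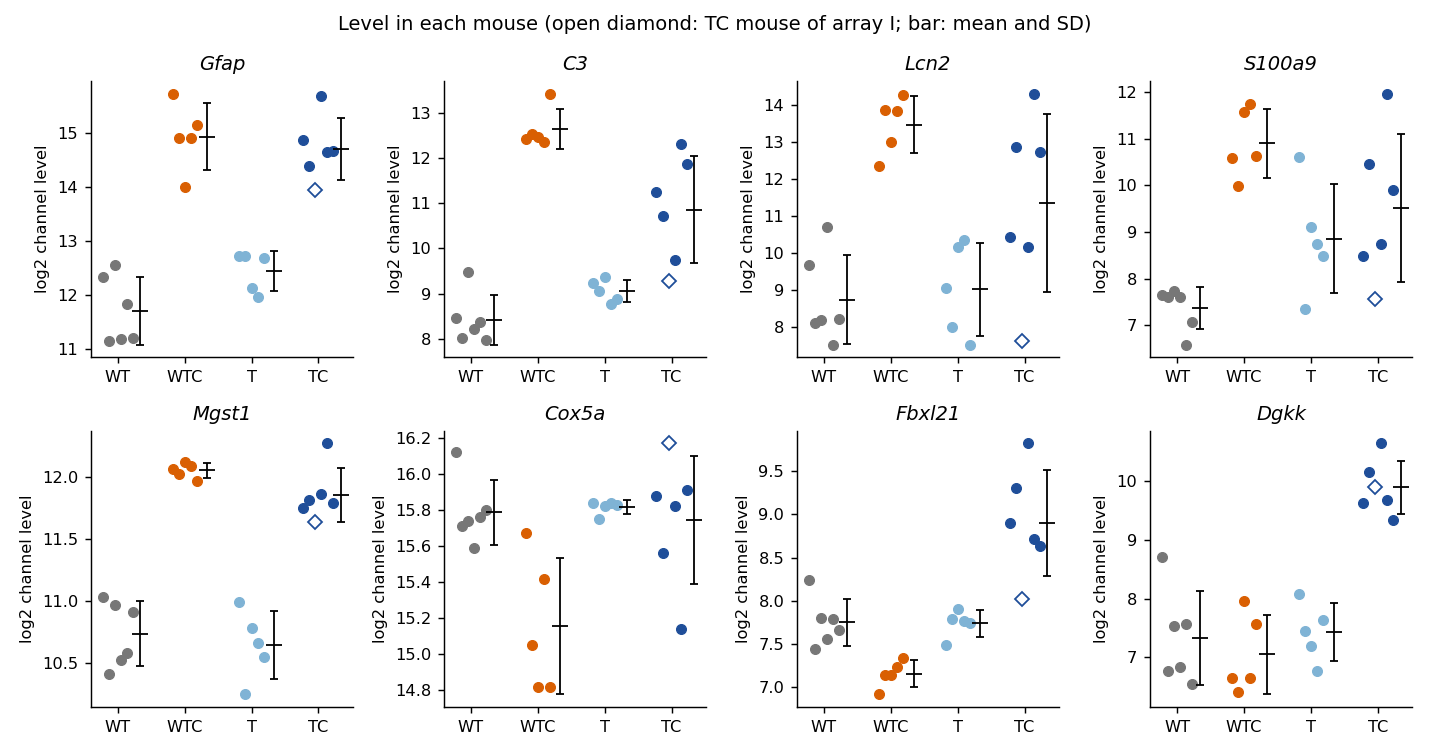
Normalised log2 channel level of 8 genes in each mouse of WT (n = 6), WTC (n = 5), T (n = 5) and TC (n = 6); bars give the mean and SD, and the open diamond marks the TC mouse of array I. Mgst1 lesioned mice of both genotypes lie above all intact mice, C3 in every TC mouse lies below every WTC mouse, and Dgkk in every TC mouse lies above all other mice.

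The genes with the smallest interaction p were chosen by that p, so their values are a description and none passed. Dgkk, a diacylglycerol kinase, had TC levels from 9.35 to 10.65 (median 9.80). WT mice ran from 6.55 to 8.72 (median 7.18), WTC mice were at 6.41, 6.65, 6.65, 7.58 and 7.97, and T mice at 6.77, 7.20, 7.46, 7.64 and 8.09. The TC range did not overlap any other group. Its effects were -0.49 ± 0.51 in wild-type and 2.22 ± 0.50 in transgenic cortex, a difference of 2.71 ± 0.58.

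Fbxl21, an F-box protein of the circadian clock, had lesion effects of opposite sign, -0.61 ± 0.33 and 1.02 ± 0.32. TC mice ran from 8.02 to 9.82 (median 8.81), and WTC mice were at 6.91, 7.13, 7.14, 7.23 and 7.34. The T mice were at 7.49, 7.74, 7.77, 7.79 and 7.91, and the WT mice ran from 7.44 to 8.24 (median 7.73). All WTC mice lay below all intact mice, TC and T did not overlap, and 1 WT mouse reached into the TC range. The difference was 1.64 ± 0.37, and its 2 probes gave 1.64 and 0.80. In a fit of single channels without the TC mouse of array I, Fbxl21 passed with 1.87 ± 0.25 (adjusted p 0.011), together with Pax1, a paired-box transcription factor, at 0.63 ± 0.09 (adjusted p 0.025).

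Others with a higher transgenic effect were Prdx5, a mitochondrial peroxiredoxin (-0.22 against 0.29), Rspry1 (-0.33 against 0.11) and Itgb1bp1, an integrin adaptor (-0.49 against 0.03), besides Cox5a below. Those with a lower one were Rgl1, a Ral exchange factor (0.58 against -0.23), Pdzd2 (0.04 against -0.93), the ciliary rootlet gene Crocc (0.32 against -0.55), Slc18b1, a polyamine transporter (0.63 against 0.15), the ciliary gene Enkd1 (0.29 against -0.16) and Iqcc (0.39 against 0.03). These 12 genes kept the sign of the difference in each of 28 alternative analyses of the same probes. Other probes gave smaller differences: -0.06 for Pdzd2, -0.02 for Iqcc, -0.51 for Rgl1 and 0.29 for Itgb1bp1.

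**Figure D3:**
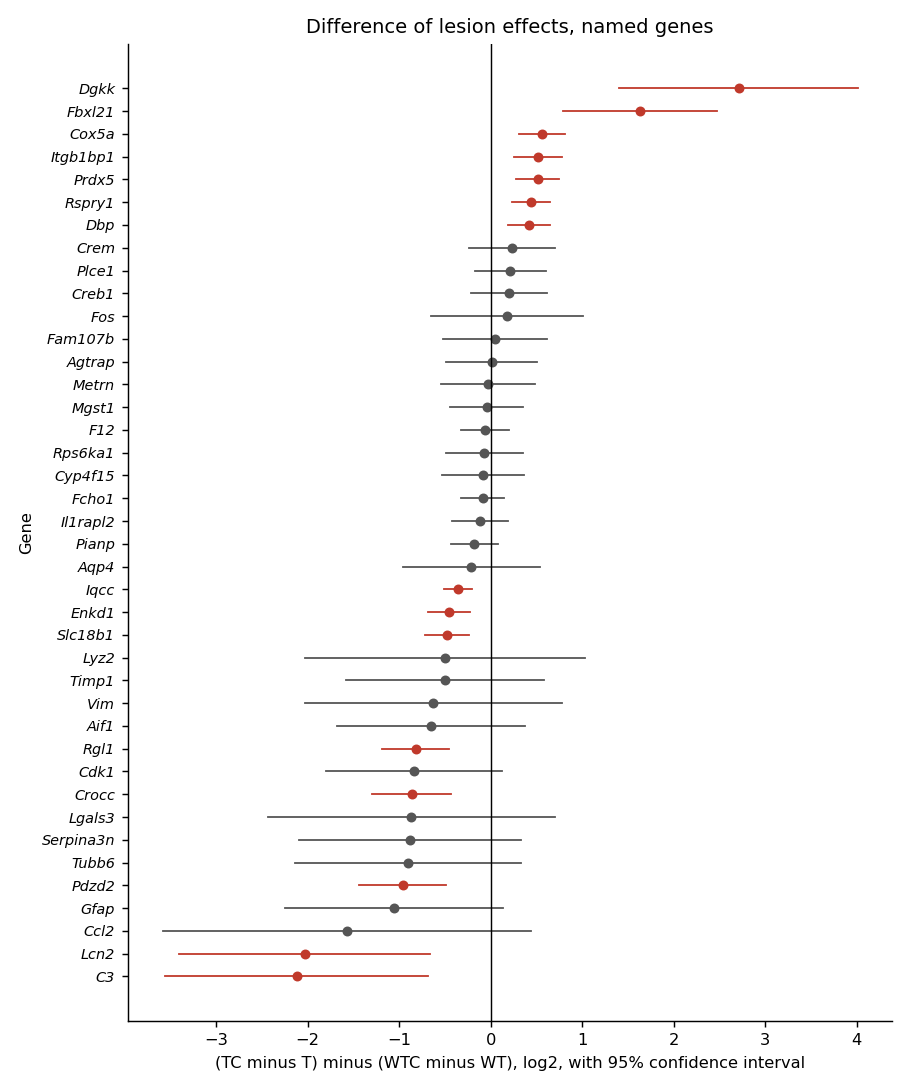
Difference of lesion effects, (TC minus T) minus (WTC minus WT), on the log2 scale with its 95% confidence interval for 40 genes, ordered by size; further members of the gene lists are not drawn. Intervals in red exclude 0 before any adjustment, the drawn estimates run from C3 at -2.12 to Dgkk at 2.71, and no gene passed after adjustment.

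The other genes of the injury response were read from 29 lists with 442 genes, of which 417 were measured. Penk, Tac1 and Crem stand in more than 1 list. In none of the lists did a member pass the interaction test, against 0% of all features, and the median interaction over all features was -0.02. An unadjusted p under 0.05 was found for 5.33% of all features, and the transgenic effect was smaller for 60.05%. Pan-reactive astrocyte genes (18 measured) had a median lesion effect of 2.01 in wild-type and 1.38 in transgenic cortex, and the difference was negative for 16 of 18 with a median of -0.59. With 1 array left out the median ran from -0.94 (K) to -0.22 (I), and without array I it was again negative for 16. Within slide 1 the median was 0.26. Lcn2, the iron-siderophore-binding lipocalin secreted by reactive astrocytes, stood lowest.

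Lcn2 levels in TC were spread widely, from 7.62 to 14.32 (median 11.59). WTC mice ran from 12.37 to 14.28 (median 13.86). Intact mice overlapped each other, from 7.53 to 10.71 in WT (median 8.21) and at 7.53, 8.01, 9.07, 10.17 and 10.35 in T. All WTC mice lay above all intact mice, whereas the TC mice at 7.62, 10.16 and 10.45 lay within the range of all intact mice. Of these, the mice at 7.62 and 10.16 also lay within the range of T. The effects were 2.97 ± 0.53 and 0.94 ± 0.52, with a difference of -2.04 ± 0.61 (unadjusted p 0.0081, adjusted p 0.81), and -1.81 without array I. Chil1, a secreted chitinase-like protein, had effects of 1.71 and 0.81, and Osmr, the oncostatin M receptor, 2.28 and 1.34. By contrast S1pr3, a sphingosine 1-phosphate receptor, had 1.86 and 1.99, and Fabp7, a brain lipid-binding protein, 2.01 and 1.71.

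A2-type reactive astrocyte genes (11 measured) had medians of 1.15 and 0.82, with a median difference of -0.45, between -0.82 (without E) and -0.27 (without L). Tgm1, a transglutaminase, had effects of 3.72 and 1.96, and Emp1, a membrane protein, 2.70 and 1.62. Homeostatic astrocyte genes (16 measured) had medians of 0.45 and 0.46, and 9 members lay higher and 7 lower in the transgenic. The median difference of 0.10 ran from -0.02 (without I) to 0.14 (without F). The 4 members with an unadjusted p under 0.05 all lay lower: Sox9, Mlc1, the glutamate transporter Slc1a2 (0.33 against -0.10) and the glutamine synthetase gene Glul (0.14 against -0.23). The 3 probes of Slc1a2 gave -0.39, -0.43 and -0.72.

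Complement genes (13 measured) had medians of 1.16 and 0.65, with a negative difference in 11 of 13, a median difference of -0.46, between -0.71 (without K) and -0.17 (without I), and -0.02 within slide 1. C3, the central complement component, separated the lesioned groups. The WTC mice were at 12.36, 12.42, 12.47, 12.52 and 13.42, and the TC mice ran from 9.27 to 12.31 (median 10.98). Intact mice were lower, from 7.97 to 9.47 in WT (median 8.30) and at 8.78, 8.88, 9.06, 9.23 and 9.36 in T. Every TC mouse lay below every WTC mouse, and 5 of 6 TC mice lay above every T mouse. The effects were 3.64 ± 0.56 and 1.52 ± 0.55, and the difference was -2.12 ± 0.64 (unadjusted p 0.0085, adjusted p 0.81). It was -1.52 by the other C3 probe, -1.82 without array I and between -2.71 and -1.73 in all 28 alternatives. C4b had effects of 2.52 and 1.37, and the protease gene C1ra 1.16 and 0.23, while the complement inhibitor Cd59a had 0.15 and 0.97.

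Leukocyte genes gave smaller estimates in the transgenic. For neutrophils 6 of 12 genes passed the filter on dim probes, so the list's defining markers Ly6g and Ngp were not measured, and all 6 had a negative difference (median -0.34, between -0.50 without K and -0.20 without L), although that of Mmp9 was below 0.001 in size. S100a9, a calcium-binding protein abundant in neutrophils, had WTC levels of 9.99, 10.59, 10.63, 11.58 and 11.74 and TC levels from 7.56 to 11.97 (median 9.32). WT mice ran from 6.58 to 7.73 (median 7.6), and T mice were at 7.36, 8.49, 8.74, 9.10 and 10.60. The wild-type groups did not overlap, while T and TC overlapped and 4 of 5 T mice lay above every WT mouse. Its effects were 2.56 in wild-type and -0.20 in transgenic cortex, a difference of -2.77 ± 0.69 (adjusted p 0.81). Its partner S100a8 showed 1.94 and 0.01, a difference of -1.92 ± 0.50. Both kept a negative difference in all 28 alternatives, from -4.05 to -2.25 for S100a9.

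Monocyte and macrophage genes (16 measured) had medians of 1.29 and 0.62, with 15 of 16 differences negative and a median of -0.64. That median ran from -0.98 (without K) to -0.07 (without L). S100a6 had effects of 2.77 and 1.4, Saa3, a serum amyloid gene, 2.29 and 1.35, and the lysozyme gene Lyz2 2.30 and 1.80. Homeostatic microglia genes (15 measured) had medians of 1.15 and 0.59, a median difference of -0.43, between -0.58 (without E) and -0.16 (without I), and 0.14 within slide 1. Aif1, a microglial actin-binding protein, had 1.61 and 0.96, and the colony-stimulating factor receptor Csf1r 1.29 and 0.70, while Olfml3 had 0.02 and 0.59 by 1 probe and a difference of -0.60 by its other probe, so its direction was not settled. Phagocyte lysosome and lipid genes (19 measured) had medians of 1.5 and 1.13, a median difference of -0.44, between -0.71 (without K) and -0.09 (without I), and 0.20 within slide 1. Gpnmb had 3.34 and 2.64, the microglial receptor Trem2 1.5 and 1.04, and the secreted phosphoprotein Spp1 2.41 and 2.23.

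Chemokines and cytokines (16 measured) had medians of 0.90 and 0.61, a median difference of -0.37, between -0.69 (without E) and -0.20 (without L), and -0.06 within slide 1. Ccl2, the monocyte attractant, had effects of 3.06 ± 0.78 and 1.49 ± 0.77 (difference -1.58 ± 0.89), Ccl12 2.84 and 1.56, and the interleukin gene Il1b 0.72 and 0.02. Ccl8 had 0.87 and 0.88.

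Antigen presentation and interferon genes had median differences of at most 0.15 in size. MHC class II genes (8 measured) had medians of 1.37 and 1.18, and the invariant chain Cd74 had 1.96 and 1.49. MHC class I and immunoproteasome genes (12 measured) had 0.79 and 0.72, and the light chain gene B2m had 0.84 and 0.75. Interferon-response genes (17 measured) had 0.86 and 0.79, with Gbp3 at 1.22 and 1.18, Ifit3 at 0.74 and 0.74 and Irf7, the interferon regulatory factor, at 0.86 and 1.25. Their median differences of -0.15, -0.12 and -0.04 ran from -0.42 (without D) to 0.07 (I), from -0.27 (E) to 0.13 (B) and from -0.29 (E) to 0.39 (J). Within slide 1, where TC is 1 mouse, they were 0.49, 1.52 and 2.09. Mice of 1 group varied widely: the mean interferon level ran from 9.33 to 12.51 in TC and was 9.21, 10.25, 10.52, 10.92 and 11.91 in WTC, so equality was not resolved. Gbp3 had a difference of -0.04 ± 0.72.

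Cell cycle genes had smaller estimates in transgenic cortex throughout. All 23 measured members had a smaller effect in transgenic cortex, with medians of 1.87 and 1.02 and a median difference of -0.80. With 1 array left out the median ran from -1.08 (E) to -0.52 (B). Without array I 22 of 23 were negative with a median of -0.52, and within slide 1 22 of 23 with a median of -1.22. The mean level of the list was 9.41, 9.77, 10.13, 10.23 and 10.69 in WTC and ran from 7.59 to 10.48 in TC (median 9.09). Intact mice ran from 7.39 to 7.94 in WT (median 7.66) and were at 7.48, 7.71, 7.76, 7.88 and 8.05 in T. In TC 5 of 6 mice lay above the intact range, and 4 of 6 lay below every WTC mouse.

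Rrm2, a subunit of ribonucleotide reductase needed for DNA synthesis, had effects of 3.02 and 1.17 (difference -1.85 ± 0.73, unadjusted p 0.031). Mki67, the proliferation marker, had 3.39 and 1.79, the mitotic kinase gene Cdk1 1.94 ± 0.37 and 1.10 ± 0.36, and the survivin gene Birc5 2.95 and 1.51. Pcna, the replication clamp, had 0.61 and 0.59 and Tyms 0.07 and 0.01. Every dividing cell uses these genes. Microglia and monocyte genes were also lowest among TC mice in the mouse of array I, at 10.91 and 7.99, and their part in this result was not tested.

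**Figure D4:**
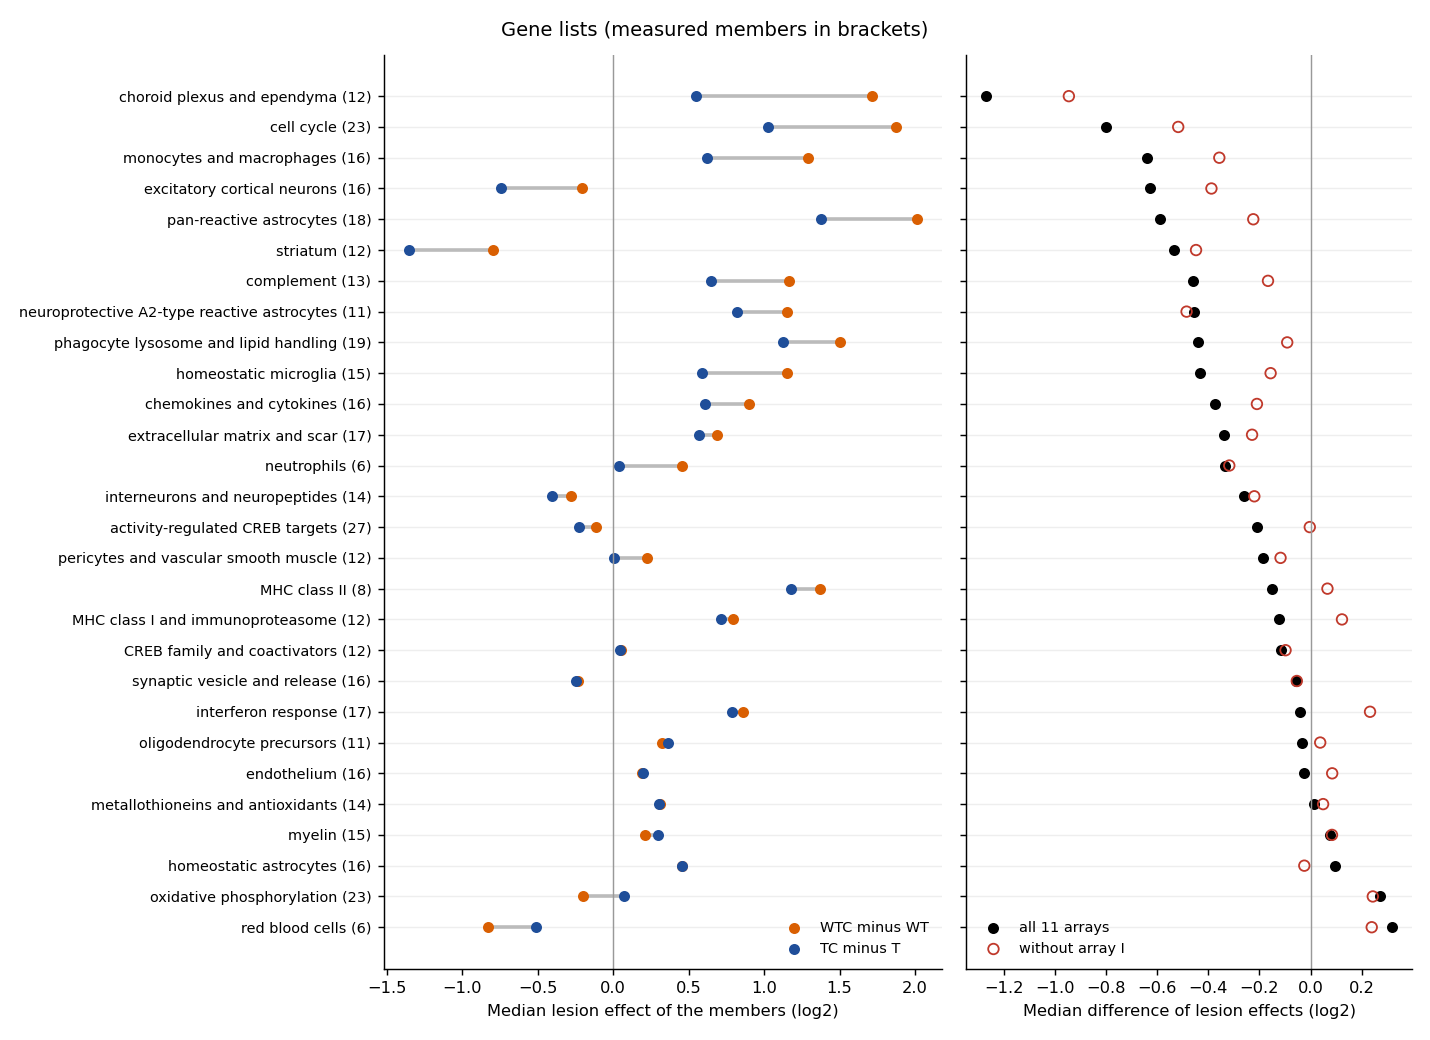
Left, median lesion effect (log2) of the measured members of 28 gene lists in wild-type (WTC minus WT) and transgenic cortex (TC minus T); right, the median difference of both effects with all 11 arrays and without array I. Medians run from -1.27 for choroid plexus and ependyma to 0.32 for red blood cells, and pan-reactive astrocytes move from -0.59 to -0.22 without array I.

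Metallothioneins and antioxidant genes (14 measured) had medians of 0.31 and 0.30, with 7 differences in each direction and a median difference of 0.01 that ran from -0.06 (without D) to 0.05 (without F). The heme oxygenase gene Hmox1 had 3.00 and 1.66 and Mt1 1.04 and 0.85, while Gclm, a subunit of glutathione synthesis, had -0.08 and 0.26.

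Matrix genes (17 measured) had medians of 0.69 and 0.57, a median difference of -0.34, between -0.58 (without J) and -0.11 (without L), and -0.01 within slide 1. The fibrillar collagen gene Col1a1 had 1.35 and 0.68 and Col6a1 -0.28 and -1.17, while Sparc had 0.92 and 1.58. Pericyte and smooth muscle genes (12 measured) had 0.22 and 0.01, with a median difference of -0.19 that ran from -0.25 (without A) to -0.05 (without L). Tagln, an actin-binding protein of contractile cells, had 2.32 and 0.64 (difference -1.67 ± 0.65). Endothelial genes (16 measured) had 0.19 and 0.20, with 8 differences in each direction. Myelin genes (15 measured) had 0.21 and 0.30 and oligodendrocyte precursor genes (11 measured) 0.32 and 0.37. The median differences of these 3 lists took both signs when 1 array was left out, from -0.11 (K) to 0.21 (L), from -0.15 (J) to 0.27 (M) and from -0.27 (J) to 0.07 (M).

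Respiratory chain genes had estimates in the other direction. Of 23 measured genes of oxidative phosphorylation, all had a higher estimate in transgenic cortex, where the median difference over all features was -0.02. Their median effect was -0.20 in wild-type and 0.07 in transgenic cortex. The median difference was 0.27 with all arrays, between 0.24 and 0.36 when any 1 array was left out, 0.48 after median centring and 0.20 within slide 1, where 2 of 23 were negative. The unadjusted p was under 0.05 for 10 of 23, against 5.33% of all features. None passed after adjustment, and the sizes were small, from 0.11 to 0.56. The members were measured in the same mice, so these counts are not independent. The list's mean level in WTC was 14.05, 14.29, 14.44, 14.46 and 14.65, and in WT it ran from 14.64 to 14.96 (median 14.75). T mice were at 14.70, 14.76, 14.76, 14.77 and 14.83, and TC mice ran from 14.20 to 14.98 (median 14.74). In wild-type mice 4 of 5 WTC mice lay below every WT mouse, whereas 4 of 6 TC mice lay at or above the lowest T mouse.

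Cox5a, a nuclear-encoded subunit of cytochrome c oxidase, had the smallest interaction p of all named genes. Its WTC mice were at 14.82, 14.82, 15.05, 15.42 and 15.67, and its WT mice ran from 15.59 to 16.12 (median 15.75). T mice were at 15.75, 15.82, 15.83, 15.84 and 15.84, and TC mice ran from 15.14 to 16.17 (median 15.85). Of the WTC mice 4 of 5 lay below every WT mouse, while T and TC overlapped, with the TC mouse of array I highest. The effects were -0.42 ± 0.10 and 0.14 ± 0.09, and the difference was 0.56 ± 0.11 (unadjusted p 0.00057, adjusted p 0.81). Atp5b, the catalytic subunit of ATP synthase, had -0.37 and 0.10 (difference 0.47 ± 0.13). Cycs, the electron carrier cytochrome c, had -0.20 and 0.17 (0.37 ± 0.12), Uqcrc1 of complex III -0.20 and 0.12, and Ndufs1 of complex I -0.26 and 0.08.

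With all arrays, neuronal lists did not follow the respiratory chain genes as a group. Synaptic vesicle genes (16 measured) had medians of -0.23 and -0.25, with 8 differences in each direction and a median difference of -0.06 that ran from -0.15 (without F) to -0.01 (without J). That median difference was 0.15 after median centring and 0.04 within slide 1, and it changed sign in 4 of 28 alternatives. Cplx1, a complexin that clamps vesicle fusion, was the exception by size: WTC mice were at 13.86, 14.01, 14.15, 14.53 and 14.78, below every WT mouse from 15.14 to 16.12 (median 15.39). T mice were at 14.91, 15.10, 15.16, 15.51 and 15.55 and TC mice from 14.43 to 15.56 (median 15.10), which overlapped. Its effects were -0.98 and 0.03 (difference 1.0 ± 0.23, adjusted p 0.81), and 0.84 without array I. Syp had -0.25 and -0.25 and Snap25 -0.12 and -0.23. Excitatory cortical neuron genes (16 measured) had medians of -0.21 and -0.74, with 11 differences negative and 5 positive. Their median difference was -0.63, between -0.77 (without K) and -0.26 (without A), and -0.06 without arrays I, J and K together. Tbr1 had -0.23 and -2.16, while Rorb kept a positive difference in all 28 alternatives, from 0.82 to 3.18. The TC mouse of array I had the lowest level of that list, 8.86. Interneuron genes (14 measured) had -0.28 and -0.40, with 9 differences negative and 5 positive. Their median difference of -0.26 ran from -0.35 (without K) to 0.01 (without M). Pvalb went against the list, with -0.40 and 0.81. Its level was 15.72 in the TC mouse of array I and 13.26 to 14.05 in the remaining TC mice.

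Genes of neighbouring tissue also had unequal estimates. Choroid plexus and ependyma genes had medians of 1.72 and 0.55, and all 12 differences were negative with a median of -1.27, which ran from -2.28 (without L) to -0.43 (without E) and was -0.95 without array I. The list's mean level was 10.15, 11.18, 11.42, 11.82 and 12.40 in WTC, from 8.12 to 12.23 in TC (median 9.08), from 8.72 to 12.17 in WT (median 9.38) and 9.18, 9.79, 9.85, 10.11 and 10.31 in T, so all groups overlapped. Ttr, made by the choroid plexus, had 2.71 and 0.48 with a difference of -2.23 ± 2.07. Striatal genes (12 measured) had -0.80 and -1.35, with a median difference of -0.53 that ran from -0.84 (without J) to -0.30 (without L). The level was 9.07, 10.36, 11.93, 12.11 and 12.76 in WTC and 9.53 to 11.97 in TC. Red blood cell genes (6 measured) had -0.83 and -0.51, and the globin gene Hbb-bs had -1.03 and -0.35. Their median difference of 0.32 ran from 0.06 (without A) to 0.60 (without B). The part of unequal tissue and blood in the other results was not tested.

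**Figure D5:**
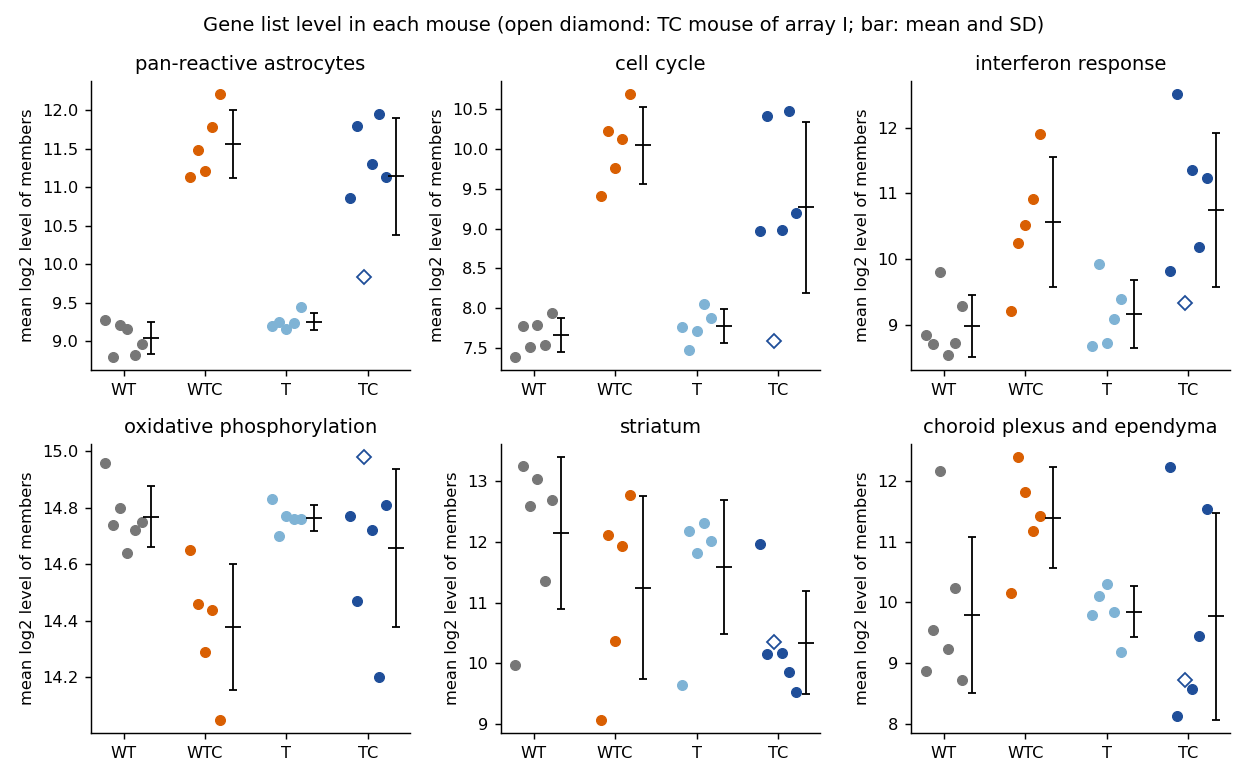
Mean normalised log2 level of 6 gene lists in each mouse of WT (n = 6), WTC (n = 5), T (n = 5) and TC (n = 6), with mean and SD; the open diamond marks the TC mouse of array I. That mouse lies at 7.59 for cell cycle genes, within the T range, and at 14.98 for oxidative phosphorylation genes, above all other mice, while striatal levels span 9.53 to 11.97 in TC and 9.98 to 13.24 in WT.

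Because the transgene is an active CREB, genes that CREB is known to drive in active neurons and the CREB family itself were read separately. Activity-regulated targets (27 measured) had medians of -0.11 and -0.23, with 17 of 27 differences negative and a median of -0.21, between -0.26 (without F) and -0.003 (without I). The immediate early gene Egr2, a zinc finger factor, had T levels of 7.58, 7.96, 8.68, 8.69 and 9.10 and TC levels from 6.66 to 7.96 (median 7.32). WT mice ran from 6.27 to 8.28 (median 7.6), and WTC mice were at 6.94, 7.03, 7.67, 7.86 and 8.23. The wild-type groups overlapped throughout, and 3 of 5 T mice lay above every WT and every TC mouse. The effects were 0.04 and -1.28, with a difference of -1.32 ± 0.37 (unadjusted p 0.0060, adjusted p 0.81).

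Npas4, a neuronal activity factor, had effects of -0.04 and -1.44 (difference -1.4 ± 0.47), Fosb -0.15 and -0.66, and the orphan receptor gene Nr4a1 -0.06 and -1.07. Penk, the proenkephalin gene and also a striatal marker, had -0.18 and -1.49. Scg2, a secretogranin of neuropeptide vesicles, went the other way, with -0.65 and 0.29. Fos had 0.48 ± 0.32 and 0.66 ± 0.32, and Atf3, a stress-induced factor, had 1.31 in both genotypes. Of the CREB family and coactivators (12 measured) no member had an unadjusted p under 0.05. For a list of this size that is near the share of all features, 5.33%. The median difference of -0.11 ran from -0.13 (without K) to -0.01 (without M). Creb1 had a difference of 0.20 ± 0.19, with 0.06 by its other probe, and Crem, which encodes the inducible repressor ICER, one of 0.23 ± 0.21; the array probes were not matched to VP16-CREB itself.

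Promoters with the cAMP response element were compared with the rest as a description. RefSeq promoter windows (250 bases before to 50 after the start, GRCm38.p6) were matched by symbol to 12701 features. The full element, TGACGTCA, which reads the same on both strands, was in 588 of 32851 windows (1.79%), and the shorter site TGACG, on either strand and also contained in the full element, in 6837 (20.8%). The median interaction was 0.02 for the 407 features with the full element and -0.01 for all 12701. It was positive for 57.5% of the former and 47.7% of the latter, and an unadjusted p under 0.05 was found for 10.6% and 6.03%. None of the 407 was among the lesion-responsive features, to which 63 of all 12701 belonged. The element contains a CG step, and the promoters compared were not matched for base composition.

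The stretches below show the element, in capitals, with up to 30 bases on each side, for 3 of the 8 features with the full element and the smallest interaction p, and for Sst, a gene known for this element; they were chosen after their values were seen. They are printed 5′ to 3′ on the strand of the gene, which is the minus strand for all of them, from RefSeq GRCm38.p6: Cycs at chr6:50566701-50566768, Trap1 at chr16:4077820-4077887, Mif at chr10:75860278-75860331 and Sst at chr16:23890855-23890922.
Cycs: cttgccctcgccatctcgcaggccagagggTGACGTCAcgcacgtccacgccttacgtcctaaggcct
Trap1: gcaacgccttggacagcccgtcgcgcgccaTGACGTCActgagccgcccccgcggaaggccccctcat
Mif: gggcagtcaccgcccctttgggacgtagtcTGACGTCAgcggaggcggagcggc
Sst: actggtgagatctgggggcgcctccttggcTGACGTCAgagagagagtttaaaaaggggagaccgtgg
The number of bases between the element and the start is 161 in Cycs, 39 in Trap1, 16 in Mif and 40 in Sst. Cycs had effects of -0.20 and 0.17 (difference 0.37 ± 0.12). Trap1, a mitochondrial chaperone, had -0.16 and 0.10 (difference 0.25 ± 0.08), and the cytokine gene Mif -0.23 and 0.17 (difference 0.40 ± 0.13). Sst, the somatostatin gene of interneurons, had -0.27 and -0.63 (difference -0.36 ± 0.23). The first 3 have a positive difference and Sst a negative one, and no adjusted p was below 0.81. The other 5 of the 8 were Zswim7, Tinf2, Ilvbl and Phospho2, with differences of 0.38, 0.63, 0.48 and 0.46, and Ttc16 with -0.58.

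The authors' deposited table gave lesion effects of each genotype on its own scale, without a test of their difference. Over the 93 features the median in the authors' deposited table was 1.08 for WTC minus WT and 0.82 for TC minus T. By the authors' deposited values the transgenic effect was smaller for 70 of the 93, and for 16731 of all 25995 features. In the authors' deposited table C3 had 4.18 and 1.53, Cox5a -0.83 and 0.07, and Dgkk -0.43 and 2.79. These come from the same arrays and are no independent measurement.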

How the data were processed

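Agilent 2-colour whole-genome mouse arrays were read from the scanner files the authors deposited, in which spot intensities are median signals without background correction. Per the file headers, they come from version 10.7.3.1 of Feature Extraction. The log10 ratio of red over green that Feature Extraction computed is in the same files, as deposited, and was used as an alternative. The authors' deposited table holds fold changes made with limma, per the file headers, in which neither version nor log base is given. The values the authors deposited there were read as log2 ratios.

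In R 4.3.3 with limma 3.58.1, backgrounds were corrected by normexp (offset 50) and ratios normalised by loess within arrays. Control spots and outliers had weight 0 in that step, and outliers were then dropped. Spots of a probe were averaged, a probe was kept if 5 or more of the 22 channels called it well above background, and each gene was represented by its brightest probe. The fit of log2 ratios took WT as the base, with 1 coefficient for each of T, WTC and TC and a dye term (7 residual degrees of freedom). P-values are from limma's moderated test, adjusted by Benjamini-Hochberg over 25995 features, and adjusted p under 0.05 was called. A mouse's level is the log2 value of its channel, scaled by Aquantile after loess and freed of the dye effect, and a list's level is the mean of its members. The procedure was tested on simulated data.

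Named genes were the 6 with the smallest interaction p in each direction, the 6 lesion-responsive genes with a mean effect of at least 1 and the narrowest bound on the interaction, the 6 with the largest mean effect in each direction, up to 3 members of each list by p, and 13 genes fixed by name. Further list members are named as examples of each direction and were chosen after their values were seen, as were Traf1, Sdc4 and Zfp36l1 among the 13 lesion-responsive features with the smallest p. The members, lists and rules were chosen with earlier results of these data known. The labels state that samples were hybridised 4 times, and 11 arrays are analysed here. Groups follow the titles, and the reading by channel 2 labels of arrays I, J and K was an alternative. Symbols are those of RefSeq (GRCm38.p6), matched through the transcript name that the array files give for each probe.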

Additional observations from a re-analysis of the deposited data

Results flagged for a closer look

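In 160 sets of 1 named gene in 1 group, 15 values lay far from the rest of their group by a gap test that chance passes in about 1 of 20 sets. Several of them belong to the same mouse. No cause was tested.

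Of the WT mice, that of array A was low for Rgl1 at 10.86 (others 11.32 to 11.49), Pdzd2 at 8.63 (9.38 to 9.74) and Enkd1 at 9.97 (10.42 to 10.53), all genes whose difference of lesion effects was negative. The WT mouse of array C was low for Rps6ka1 at 11.18 (11.63 to 11.70). The WT mouse of array D was high for C3 at 9.47 (7.97 to 8.46) and for Ccl2 at 7.91 (6.40 to 6.93).

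Of the T mice, that of array J was low for Cox5a at 15.75 (15.82 to 15.84), and that of array I was high for Vim at 12.55 (11.62 to 11.83). The T mouse of array F was high for Serpina3n at 9.24 (8.59 to 8.71) and for Ccl2 at 9.38 (6.47 to 7.05).

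Of the WTC mice, that of array A was low for Il1rapl2 at 7.12 (7.98 to 8.04), that of array K high for Cyp4f15 at 9.35 (8.60 to 8.79) and that of array M high for C3 at 13.42 (12.36 to 12.52). Of the TC mice, that of array K was high for Mgst1 at 12.27 (11.64 to 11.86) and that of array I high for Fam107b at 11.07 (9.61 to 10.08).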

How the results depend on the processing

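The interaction passed for 0 features in 27 of 28 alternatives and for 2, Fbxl21 and Pax1, in the single-channel fit without the TC mouse of array I. The count at an unadjusted p under 0.05 was 1385. It was 595 without array B, 821 without I, 3469 without K, 3496 with array weights and 2602 within slide 1, an alternative chosen after seeing the data. The median difference of the 93 lesion-responsive features along the lesion direction, -0.23, ran from -0.32 to -0.16 when 1 array was left out. It was -0.07 with median centring, -0.35 with groups from the channel 2 labels and 0.050 within slide 1. The lesion-responsive count of 93 ran from 0 to 1394 when 1 array was left out. It was 183 with median centring, 58 with the deposited ratios, 53 with slide as a block, 17 without the filter on dim probes, 4 without a dye term, 377 with a sex term, 397 without arrays I, J and K, 1117 within slide 1, 8906 in the single-channel fit and 9598 with array weights. The channel 2 labels place the T mouse of array J in TC and the TC mice of arrays I and K in T. Under them 0 features passed, and the 200 with the smallest p then had a median of 0.34. The cause was not tested. The estimates of interferon-response genes had a median that changed sign in 11 of 28 alternatives. Of 3358 gene values recomputed, 101 changed sign, none of them passing the test. A threshold of adjusted p under 0.01 left no lesion-responsive feature, and background correction on mean signals was not run, since the files used here give median signals. No paired analysis was possible because the replicate numbers count arrays of one kind of pairing and link no mice across arrays. The mice of 1 array are already compared within it by the log2 ratio.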
